A study of Mus musculus with 15 samples.

Results

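The mature 5p arms of the mouse miR-15/16 and miR-195a/miR-497a clusters, miR-15a-5p, miR-15b-5p, miR-16-5p, miR-195a-5p and miR-497a-5p, were followed across 15 small RNA libraries. Inserts of 18 to 26 bases were given to an arm when their first 18 bases matched it exactly, and these 5 arms were among 753 miRNA features with at least 1 read. The libraries formed 5 groups of 3. TUBO exosomes were isolated from the culture supernatant of TUBO cells, a mouse breast cancer line derived from Balb-NeuT tumours. TUBO supernatant was the fluid left over from that exosome isolation, and TUBO cells were the line itself. MM3MG-Her2 was the MM3MG line after retroviral transduction with pLSXN-Neu, where Neu is the rat form of Her2, and MM3MG was the untransduced line, labelled as normal mammary epithelium of BALB/c mice. TUBO and MM3MG-Her2 thus both carry Neu, but each stands for a single line. All groups were grown in DMEM with 10% FCS without further treatment. Neither the age or sex of source animals nor the clonality of the transduced line is given in the sources used here. According to its deposited design text, the study searched these lines and the particles they secrete for miRNAs that regulate the progesterone receptor.

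The miR-15/16 family is known for restraining the cell cycle and survival: its members repress cyclin D and cyclin E transcripts and the anti-apoptotic Bcl2. The human miR-15a/16-1 cluster lies in the chromosome region that is lost in chronic lymphocytic leukaemia, and miR-195a and miR-497a have human counterparts described as growth-restraining miRNAs in human breast cancer. All members load into Argonaute mainly through the 5p arm, and the 3p arm of the hairpin is mostly discarded as the passenger.

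The 5 arms are shown because a shared seed sets their targets, while the bases behind it tell them apart. RefSeq (GRCm38.p6) gave these mature sequences, 5′ to 3′, with the seed (bases 2 to 8) in capitals.
miR-15a-5p: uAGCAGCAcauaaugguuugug
miR-15b-5p: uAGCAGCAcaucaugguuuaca
miR-16-5p: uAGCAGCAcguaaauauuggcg
miR-195a-5p: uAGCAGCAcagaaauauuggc
miR-497a-5p: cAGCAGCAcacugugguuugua
All 5 carried the seed AGCAGCA. Counted from the 5′ end of the DNA form, miR-15a-5p and miR-15b-5p differ within the first 18 bases by A12C alone. miR-16-5p and miR-195a-5p differ there by G10A and T11G.

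The arms come from 3 clusters. Mir15a (5p arm at chr14:61632075-61632096, minus strand) and Mir16-1 (chr14:61631936-61631957, minus strand) lie in an intron of the noncoding gene Dleu2 on the same strand, with 139 bases between the starts of their 5p arms. Mir15b (chr3:69009775-69009796, plus strand) and Mir16-2 (chr3:69009918-69009939, plus strand) lie in an intron of Smc4, which encodes a condensin subunit, again on the same strand and with 143 bases between the starts. The miR-497a hairpin (5p arm at chr11:70234730-70234751, plus strand) and Mir195a (chr11:70235062-70235082, plus strand) have 332 bases between the starts of their 5p arms. No GENCODE M21 gene outside the miRNA class contains these arms. Overlap with other miRNA genes was not searched. miR-16-5p is identical from both of its loci, so its reads could not be split between chromosomes 3 and 14.

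Libraries held between 196152 and 710902 reads, of which 56415 to 519559 were miRNA reads, the denominator of every CPM value (counts per 1000000 miRNA reads). Supernatant libraries were the shallowest, with 29.2% ± 2.38 (SD, n = 3) miRNA reads. The third replicates of the exosome and supernatant groups and the first replicate of MM3MG stood apart from the other replicates of their groups, with a chi-square per degree of freedom over miRNAs of 113, of 48.4 to 49.9 and of 48.7 to 52.4, against 5.03 to 19.3 for the other pairs. A set of 7 epithelial miRNAs summed to 25381 to 26667 CPM in TUBO cells but only to 12.2 to 42.1 CPM in MM3MG-Her2 and 21.4 to 33.0 CPM in MM3MG, so the epithelial label of the MM3MG line was not borne out by these markers. Whether replicates were separate cultures is not given, so p-values measure the spread between these libraries, which may be technical.

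miR-16-5p had 15553 reads over all libraries, miR-15b-5p 1358, miR-15a-5p 1203, miR-195a-5p 576 and miR-497a-5p 111. Levels are given per group in the order of replicates 1, 2 and 3.

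miR-16-5p, the most abundant member and a repressor of cyclins, had 2537, 2389 and 3221 CPM in exosomes and 2895, 2694 and 3465 CPM in supernatant. TUBO cells had 4787, 4516 and 4286 CPM. MM3MG-Her2 had 5016, 5078 and 4843 CPM, against 2870, 3346 and 2329 CPM in MM3MG. Every MM3MG-Her2 library was above every TUBO cell library, and both stood above all others, whereas supernatant, MM3MG and exosomes overlapped as neighbours in the order of means. By mean level it ranked between 32 and 44 among the miRNAs of its group.

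miR-15a-5p, the Dleu2 partner of miR-16-1, had 156, 242 and 147 CPM in exosomes and 124, 213 and 94.4 CPM in supernatant. TUBO cells had 351, 305 and 333 CPM. MM3MG-Her2 had 394, 362 and 349 CPM, against 323, 310 and 279 CPM in MM3MG. All 9 cell libraries were above all 6 exosome and supernatant libraries. By mean the order was MM3MG-Her2, TUBO cells, MM3MG, exosomes and supernatant, and neighbours overlapped except MM3MG and exosomes. MM3MG-Her2 and MM3MG did not overlap.

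miR-15b-5p, the Smc4 partner of miR-16-2, had 248, 335 and 354 CPM in exosomes and 607, 869 and 324 CPM in supernatant. TUBO cells had 401, 318 and 408 CPM. MM3MG-Her2 had 426, 346 and 415 CPM, against 149, 188 and 213 CPM in MM3MG. The MM3MG libraries were the lowest 3 of the 15, and neighbours among the other 4 groups overlapped, with the widest spread in supernatant.

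miR-195a-5p, from the chromosome 11 cluster, had 171, 199 and 207 CPM in exosomes and 68.9, 160 and 0 CPM in supernatant. TUBO cells had 221, 222 and 212 CPM. MM3MG-Her2 had 18.3, 40.7 and 24.1 CPM, against 49.7, 83.4 and 71.9 CPM in MM3MG. Each group stood clear of its neighbour in the order of means, TUBO cells before exosomes before supernatant and MM3MG before MM3MG-Her2, except that supernatant and MM3MG overlapped.

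miR-497a-5p, encoded next to miR-195a, had 91.3, 114 and 91.1 CPM in exosomes and 152, 142 and 0 CPM in supernatant. TUBO cells had 6.20, 5.17 and 1.92 CPM, which is 6 reads in all. MM3MG-Her2 had 0 reads of 630329, which allows up to 4.76 CPM at 3 reads, against 0, 2.14 and 3.00 CPM in MM3MG, which is 2 reads in all. Exosome libraries were thus high and every cell library low, while the supernatant was high in replicates 1 and 2 and empty in replicate 3, where 0 of 74182 miRNA reads was found. Floors and intervals here cover counting error only: no molecular identifiers are named, so copies made by PCR count as separate reads.

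**Figure D1:**
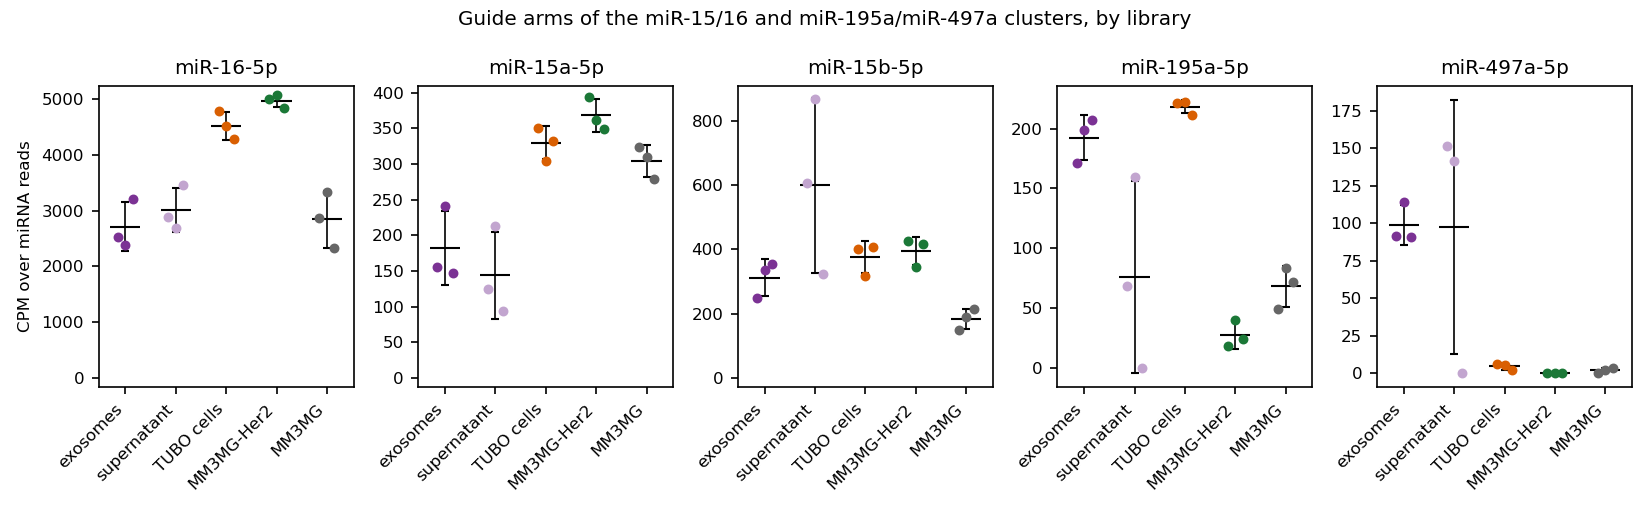
CPM over miRNA reads of the 5 guide arms (y axis, linear, 1 panel an arm) in the 5 groups (x axis); points are libraries, the horizontal line is the mean and the whisker the SD of 3 libraries. All MM3MG-Her2 points of miR-16-5p, miR-15a-5p and miR-15b-5p lie above the MM3MG points, miR-195a-5p is highest in TUBO cells, and miR-497a-5p is at most 6.20 CPM in cells and at 91.1 to 114 CPM in exosomes.

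Neu transduction of MM3MG was compared first. miR-16-5p and miR-15b-5p rose in MM3MG-Her2 relative to MM3MG, miR-195a-5p fell and miR-15a-5p did not pass the test. edgeR's quasi-likelihood test, with Benjamini-Hochberg adjustment over all 249 miRNAs tested, called 61.0% of them at an adjusted p under 0.05, so that 3 called of the 4 arms tested was close to the background. Of all tested miRNAs 28.9% were higher and 32.1% lower. Libraries of the groups did not overlap for 4 of the 4 arms, against 65.9% of all miRNAs. The median log2 fold change was 0.52 over these 4 arms and -0.02 over all tested miRNAs, the second being -0.22 with RLE scaling. In bulk RNA of this kind, fewer cells with a miRNA and less of it per cell cannot be told apart.

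miR-15b-5p averaged 396 ± 43.5 CPM in MM3MG-Her2 and 183 ± 32.1 CPM in MM3MG (SD, n = 3 each), a log2 fold change of 1.08 ± 0.21 (SE; adjusted p = 3.54e-06). miR-16-5p averaged 4979 ± 122 CPM and 2848 ± 509 CPM in the same order, with a log2 fold change of 0.78 ± 0.15 (adjusted p = 3.22e-06). Both calls were lost when MM3MG-Her2 replicate 3 was left out (0.47, adjusted p = 0.0565, and 0.22, adjusted p = 0.196), where the median of all tested miRNAs moved to -0.60. miR-15a-5p averaged 368 ± 23.2 CPM in MM3MG-Her2 and 304 ± 22.9 CPM in MM3MG, and its log2 fold change of 0.26 ± 0.20 missed the threshold (adjusted p = 0.237). miR-195a-5p averaged 27.7 ± 11.6 CPM in MM3MG-Her2 and 68.3 ± 17.1 CPM in MM3MG; it fell by 1.31 ± 0.39 on the log2 scale (adjusted p = 0.00212), on 18 and 77 reads, and passed under all 17 alternatives. miR-15b-5p and miR-16-5p therefore lay on the opposite side of 0 from the chromosome 11 arm miR-195a-5p under all 17 alternatives, whereas miR-15a-5p turned to -0.28 without MM3MG-Her2 replicate 3. miR-497a-5p was too low to be tested in any comparison among cells.

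TUBO cells were then set against MM3MG. miR-195a-5p and miR-15b-5p rose in TUBO cells, whereas miR-16-5p and miR-15a-5p did not pass the test. The counts were 2 higher and 0 lower of 4 tested arms, with 83.1% of all tested miRNAs called, 30.9% higher and 52.2% lower. Libraries did not overlap for 3 of the 4, against 83.1% of all. The median log2 fold change of the 4 arms was 0.47. miR-195a-5p averaged 218 ± 5.75 CPM in TUBO cells and 68.3 ± 17.1 CPM in MM3MG, a log2 fold change of 1.25 ± 0.25 (edgeR, adjusted p = 3.61e-06). It passed under all 17 alternatives, at 1.14 to 2.14. miR-15b-5p averaged 376 ± 50.2 CPM in TUBO cells and 183 ± 32.1 CPM in MM3MG, with 0.65 ± 0.20 (adjusted p = 0.00201). It passed under all 17 as well, but its size ranged from 0.59 to 1.5: it was 0.59 without MM3MG replicate 1, 1.36 and 1.40 without MM3MG replicates 2 and 3, and 1.31, 1.5 and 1.31 without TUBO replicates 1, 2 and 3.

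miR-16-5p averaged 4530 ± 251 CPM in TUBO cells and 2848 ± 509 CPM in MM3MG, without overlap. Its log2 fold change of 0.29 ± 0.15 missed the threshold with TMM scaling (adjusted p = 0.0646) but was 0.61 (adjusted p = 0.000463) with RLE scaling, and it passed in 14 of 17 alternatives. Without any one of the 6 libraries it passed, at 0.34 without MM3MG replicate 1, 1.12 without MM3MG replicate 2, 0.80 without MM3MG replicate 3 and 0.95, 1.04 and 1.05 without TUBO replicates 1, 2 and 3. miR-15a-5p averaged 330 ± 23.4 CPM in TUBO cells and 304 ± 22.9 CPM in MM3MG, and its log2 fold change was -0.26 (adjusted p = 0.176) with TMM and 0.06 with RLE. It passed in 4 of 17 alternatives with the opposite sign, at 0.40, 0.54 and 0.46 without TUBO replicates 1, 2 and 3 (adjusted p = 0.0403, 0.00433 and 0.022) and at 0.45 without MM3MG replicate 2 (adjusted p = 0.0222), so no direction is given for it. TMM placed the median of all tested miRNAs in this comparison at -0.52, RLE at -0.19 and library size alone at -0.14. With TMM and 1 library left out, it was -0.56 without MM3MG replicate 1, 0.27 and 0.12 without MM3MG replicates 2 and 3, and 0.14, 0.13 and 0.14 without TUBO replicates 1, 2 and 3, so the members' values in these fits carry a shift of all miRNAs. Relative to the median of -0.52, the members' differences were 1.77 for miR-195a-5p, 1.16 for miR-15b-5p, 0.80 for miR-16-5p and 0.25 for miR-15a-5p. A shift common to all miRNAs drops out of these differences by construction.

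Between the Neu-carrying lines, only miR-195a-5p differed in a way that held under every scaling. It averaged 218 ± 5.75 CPM in TUBO cells and 27.7 ± 11.6 CPM in MM3MG-Her2, a log2 fold change of 2.56 ± 0.33 (edgeR, adjusted p = 6.46e-11), and passed under all 17 alternatives at 2.34 to 3.54. On TMM, 1 arm was higher and 3 were lower of the 4 tested, with 81.9% of all tested miRNAs called, 26.1% higher and 55.8% lower. With RLE scaling 44.1% of all calls were higher, in place of 31.9%. Libraries did not overlap for 2 of the 4 arms, against 80.7% of all. miR-16-5p averaged 4530 ± 251 CPM in TUBO cells and 4979 ± 122 CPM in MM3MG-Her2; its log2 fold change was -0.50 ± 0.15 (adjusted p = 0.00168) with TMM, but 0.01 with RLE. miR-15a-5p gave -0.53 ± 0.19 (adjusted p = 0.00986) with TMM and -0.01 with RLE, and miR-15b-5p gave -0.44 ± 0.19 (adjusted p = 0.0322) and 0.09, so no direction is given for these 3 arms. The median of all tested miRNAs was -0.74 with TMM and -0.23 with RLE, and with TMM miR-16-5p lay 0.25, miR-15a-5p 0.22 and miR-15b-5p 0.31 above it. The median of all 4 arms was -0.47 with TMM.

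The exosome and supernatant libraries were compared with TUBO cells. In TUBO exosomes miR-497a-5p rose and miR-16-5p fell relative to TUBO cells, while miR-15a-5p, miR-15b-5p and miR-195a-5p did not pass. The counts were 1 higher and 1 lower of 5 tested, with 37.0% of all 208 tested miRNAs called, 19.7% higher and 17.3% lower. Of these calls 53.2% were higher with TMM, 41.1% with RLE, 42.9% with library size alone and 68.0% with upper-quartile scaling. Libraries did not overlap for 4 of the 5 arms, against 63.5% of all. The median log2 fold change was -0.12 over the 5 arms and -0.02 over all tested miRNAs, which RLE moved to -0.18 and upper-quartile scaling to 0.17.

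miR-497a-5p averaged 99.0 ± 13.4 CPM in exosomes and 4.43 ± 2.23 CPM in TUBO cells. Its log2 fold change was 4.52 ± 0.62 (edgeR, adjusted p = 7.91e-06), and the pooled reads, 84 in exosomes and 6 in cells, gave a ratio of 22.6 (95% exact interval 9.97 to 63.4). It passed under all 17 alternatives, at 3.56 to 4.80. Its neighbour miR-195a-5p averaged 192 ± 18.9 CPM in exosomes and 218 ± 5.75 CPM in cells, a log2 fold change of -0.03 ± 0.38 (adjusted p = 0.955) that turned positive, to 0.15, with upper-quartile scaling.

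Blood and serum miRNAs were also more abundant in exosomes than in TUBO cells. miR-451a, which is made in erythroid cells, had 946, 1182 and 887 CPM in exosomes, 27.6, 0 and 0 CPM in supernatant and 0 reads in all 9 cell libraries. Of a list of 7 blood and serum miRNAs, 6 were found, and their sum was 10690 to 25781 CPM in exosomes, 3155 to 7414 CPM in supernatant and 132 to 161 CPM in TUBO cells. It was 728 to 883 CPM in MM3MG-Her2 and 1118 to 1293 CPM in MM3MG, both above TUBO cells. Outside exosomes the members of this list differed from each other. Supernatant replicates 1 and 2, with 152 and 142 CPM of miR-497a-5p, had 27.6 and 0 CPM of miR-451a. miR-486a-5p, counted with miR-3107-5p, averaged 4570 CPM in supernatant and 145 CPM in TUBO cells. miR-122-5p averaged 79.2 CPM in supernatant and 5.54 CPM in TUBO cells, whereas miR-126a-3p had 0 reads in both. miR-144-3p and miR-223-3p of this list had reads in exosomes only, and miR-150-5p was found nowhere. The medium held 10% FCS, and the part of serum RNA in the miR-497a-5p level was not tested.

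miR-16-5p averaged 2716 ± 444 CPM in exosomes and 4530 ± 251 CPM in TUBO cells, and fell by 0.59 ± 0.21 on the log2 scale (edgeR, adjusted p = 0.0349); it passed in 10 of 17 alternatives, always in the same direction. The call was lost without TUBO cell replicate 1 (-0.58), 2 (-0.63) or 3 (-0.66) and without exosome replicate 1 (-0.52) or 2 (-0.58). It was also lost with upper-quartile scaling (-0.41, adjusted p = 0.2) and with no filter on low counts (-0.56, adjusted p = 0.079). miR-15a-5p averaged 182 ± 52.0 CPM in exosomes and 330 ± 23.4 CPM in cells, with a log2 fold change of -0.71 ± 0.31 (adjusted p = 0.0738). It passed, however, in 9 of 17 alternatives, among them RLE scaling (-0.88, adjusted p = 0.0141), and was negative in all of them (-1.05 to -0.53). Without exosome replicate 3, which stood apart, miR-15a-5p gave -0.75 (adjusted p = 0.0322) and miR-16-5p gave -0.87 (adjusted p = 0.0126); miR-15a-5p also passed without exosome replicate 2 (-1.05). miR-15b-5p averaged 312 ± 56.7 CPM in exosomes and 376 ± 50.2 CPM in cells, with overlap and a log2 fold change of -0.12 ± 0.28 (adjusted p = 0.743), or 0.06 with upper-quartile scaling.

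In TUBO supernatant miR-497a-5p and miR-15b-5p rose and miR-15a-5p and miR-195a-5p fell relative to TUBO cells. These were 2 higher and 2 lower of 5 tested, with 73.1% of all tested miRNAs called, 32.7% higher and 40.4% lower, and with no overlap for 3 of the 5 arms against 75.5% of all. The median log2 fold change was -0.38 both over the 5 arms and over all tested miRNAs, the second being -0.52 with RLE and -0.12 with upper-quartile scaling. miR-497a-5p averaged 97.8 ± 84.9 CPM in supernatant and 4.43 ± 2.23 CPM in cells, a log2 fold change of 4.51 ± 0.80 (edgeR, adjusted p = 5.16e-05), although supernatant replicate 3 had no read of it. miR-15b-5p averaged 600 ± 273 CPM in supernatant and 376 ± 50.2 CPM in cells, with 0.85 ± 0.29 (adjusted p = 0.0147).

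miR-15a-5p averaged 144 ± 61.6 CPM in supernatant and 330 ± 23.4 CPM in cells, and fell by 1.04 ± 0.38 on the log2 scale (adjusted p = 0.0202). miR-195a-5p averaged 76.2 ± 80.0 CPM in supernatant and 218 ± 5.75 CPM in cells, and fell by 1.43 ± 0.55 (adjusted p = 0.024). Both calls were lost without supernatant replicate 3 (-0.66, adjusted p = 0.113, and -0.64, adjusted p = 0.126), and each passed in 11 of 17 alternatives. The other libraries whose removal ended both calls were supernatant replicate 1 and TUBO cell replicates 1, 2 and 3, with -1.01 to -0.89 for miR-15a-5p and -1.36 to -1.31 for miR-195a-5p. Upper-quartile scaling ended both calls as well (-0.79, adjusted p = 0.057, and -1.21, adjusted p = 0.0534). miR-15b-5p, at 1.30 without supernatant replicate 3, passed in 12 of 17. Its call was lost without supernatant replicate 1 (0.89) or 2 (0.68) or TUBO cell replicate 2 (0.84). It was also lost with library size alone (0.65, adjusted p = 0.065) and with no filter on low counts (0.71, adjusted p = 0.0645). miR-16-5p averaged 3018 ± 400 CPM in supernatant and 4530 ± 251 CPM in cells without overlap, and its log2 fold change of -0.38 ± 0.22 missed the threshold (adjusted p = 0.122).

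Exosomes and the fluid left after their isolation differed in opposite ways for miR-195a-5p, which was higher in exosomes, and miR-15b-5p, which was lower. The counts were 1 higher and 1 lower of 5 tested, with 67.8% of all tested miRNAs called, 39.9% higher and 27.9% lower, and with no overlap for 1 of the 5 arms against 69.2% of all. The median log2 fold change was 0.01 over the 5 arms and 0.48 over all tested miRNAs. miR-15b-5p averaged 312 ± 56.7 CPM in exosomes and 600 ± 273 CPM in supernatant, a log2 fold change of -0.96 ± 0.30 (edgeR, adjusted p = 0.00764) that passed in 15 of 17 alternatives, the exceptions being without exosome replicate 1 (-0.79) and without supernatant replicate 2 (-0.81). miR-195a-5p averaged 192 ± 18.9 CPM in exosomes and 76.2 ± 80.0 CPM in supernatant, with 1.40 ± 0.56 (adjusted p = 0.0312), and passed in 11 of 17 alternatives. The call was lost with a match to the annotated end (1.12, adjusted p = 0.0656) and with inserts of 20 to 24 bases (1.02, adjusted p = 0.0835). Leaving out supernatant replicate 3 ended it too (0.59, adjusted p = 0.178), as did leaving out exosome replicate 3 (1.13, adjusted p = 0.0888), exosome replicate 2 (1.23) or supernatant replicate 1 (1.31). miR-497a-5p gave 0.01 ± 0.56 (adjusted p = 0.987), and -0.80 (adjusted p = 0.0844) without supernatant replicate 3. miR-15a-5p gave 0.33 ± 0.40 (adjusted p = 0.499) and miR-16-5p -0.21 ± 0.22 (adjusted p = 0.4), or -0.62 (adjusted p = 0.0386) without exosome replicate 3. These 3 comparisons of TUBO fractions share libraries, as do the 3 of cell lines.

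**Figure D2:**
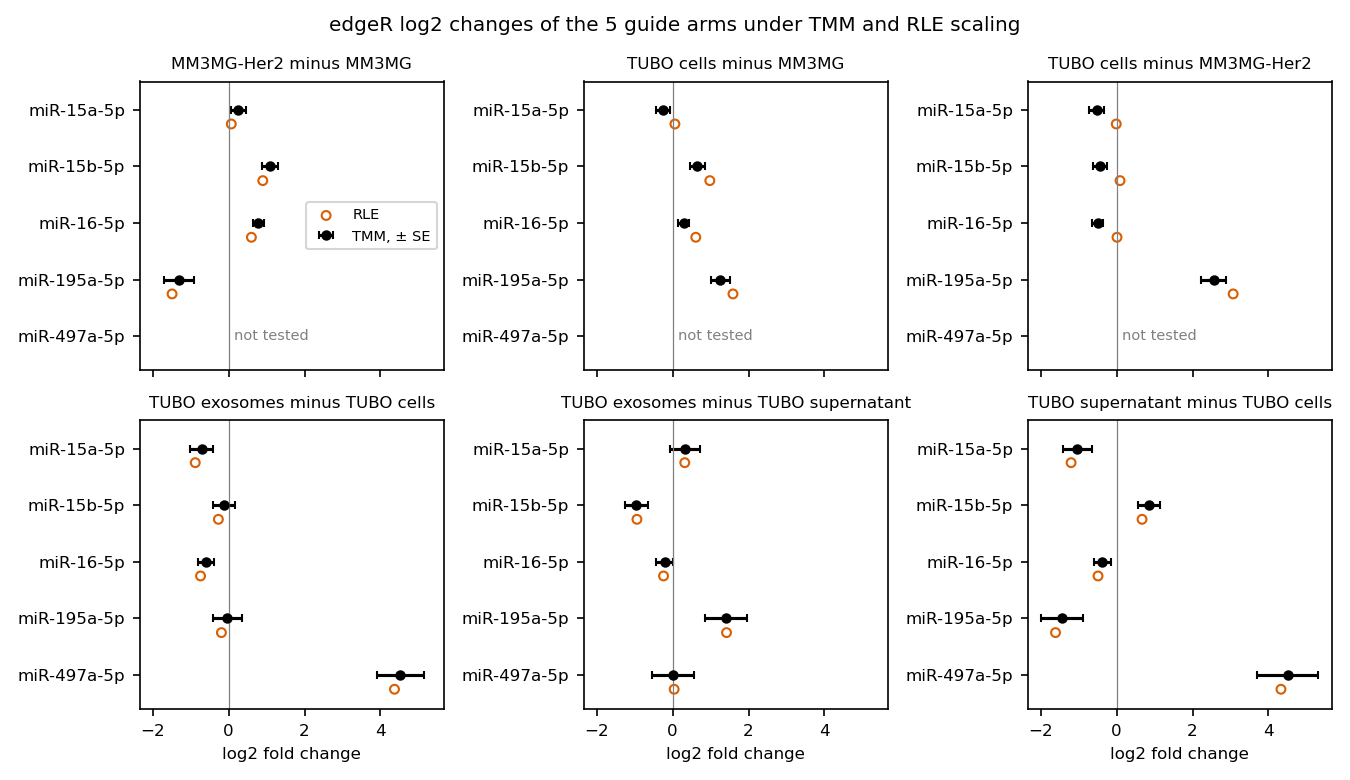
log2 fold changes (x axis) of the 5 guide arms (y axis) in each of the 6 comparisons (panels; first-named group minus the other), from edgeR with TMM scaling (filled points, whiskers ± SE) and with RLE scaling (open points). The open points of miR-15a-5p, miR-15b-5p and miR-16-5p lie near 0 for TUBO cells minus MM3MG-Her2, where the filled ones lie between -0.53 and -0.44, while miR-195a-5p in cells and miR-497a-5p against TUBO cells keep their side.

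Ratios within a library need no scaling between libraries, and gave the balance of the clusters directly. With 3 libraries against 3 the smallest two-sided exact permutation p is 0.1, so none of these ratios could pass 0.05, and p-values were adjusted over the 6 comparisons of a ratio.

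miR-15a-5p and miR-15b-5p are near-identical products of different chromosomes. The share of miR-15a-5p in their sum was 38.7%, 41.9% and 29.4% in exosomes, 17.0%, 19.7% and 22.6% in supernatant and 46.7%, 49.0% and 44.9% in TUBO cells. It was 48.0%, 51.1% and 45.7% in MM3MG-Her2, against 68.4%, 62.2% and 56.7% in MM3MG. MM3MG libraries were the highest and supernatant libraries the lowest of all 15, and only TUBO cells and MM3MG-Her2 overlapped. The difference in mean share was -14.2 percentage points for MM3MG-Her2 minus MM3MG, -15.6 for TUBO cells minus MM3MG and -1.42 for TUBO cells minus MM3MG-Her2. It was -10.2 points for exosomes minus TUBO cells, 16.9 for exosomes minus supernatant and -27.1 for supernatant minus TUBO cells. The exact permutation p was 0.1 in each of these but TUBO cells minus MM3MG-Her2 (p = 0.6), with adjusted values of 0.12 and 0.6. Reads 1 substitution away from miR-15a-5p or miR-15b-5p at any one other position were at most 0.998% and 0.663% of the exact reads.

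The chromosome 11 arms miR-195a-5p and miR-497a-5p together made up 8.19%, 9.56% and 7.41% of the reads of all 5 arms in exosomes, 5.73%, 7.39% and 0% in supernatant and 3.94%, 4.24% and 4.08% in TUBO cells. They made up 0.313%, 0.698% and 0.427% in MM3MG-Her2, against 1.47%, 2.18% and 2.59% in MM3MG. The cell groups did not overlap, with TUBO cells highest and MM3MG-Her2 lowest. Exosomes lay above every other library, but exosome replicate 3 (7.41%) only barely above supernatant replicate 2 (7.39%). Each comparison gave an exact permutation p of 0.1 (adjusted 0.12), except supernatant against TUBO cells (p = 1).

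Within the chromosome 11 pair, miR-497a-5p had 34.8%, 36.5% and 30.6% of the reads in exosomes and 68.8% and 47.1% in supernatant replicates 1 and 2, the third having no read of either arm. It had 2.73%, 2.27% and 0.901% in TUBO cells, 0% in all of MM3MG-Her2 and 0%, 2.50% and 4% in MM3MG. All exosome and supernatant libraries with reads were above all cell libraries. The exact permutation p was 0.1 for exosomes minus TUBO cells (adjusted 0.15), a difference of 32.0 percentage points.

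As a summed share of miRNA reads the 5 arms were at 0.350% ± 0.0451 in exosomes, 0.394% ± 0.0124 in supernatant, 0.546% ± 0.0274 in TUBO cells, 0.577% ± 0.0122 in MM3MG-Her2 and 0.341% ± 0.0518 in MM3MG (SD, n = 3 each). TUBO cells and MM3MG-Her2 overlapped with each other and stood above the rest.

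The 3′ ends of the arms varied too. The commonest inserts of each arm are shown as DNA, with the bases after the matched 18 in capitals, since their ends differ between groups.
miR-15b-5p, 21 bases: tagcagcacatcatggttTAC
miR-15b-5p, 22 bases: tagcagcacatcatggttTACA
miR-15a-5p, 21 bases: tagcagcacataatggttTGT
miR-16-5p, 22 bases: tagcagcacgtaaatattGGCG
miR-195a-5p, 22 bases: tagcagcacagaaatattGGCA
miR-497a-5p, 21 bases: cagcagcacactgtggttTGT
For miR-15b-5p the 21-base form, 1 base shorter than annotated, held 62.2% of reads and the 22-base form 32.3%. The 21-base form of miR-15a-5p held 58.8% of its reads, the annotated 22-base form of miR-16-5p 69.5%, and the 21-base form of miR-497a-5p 64.0%. For miR-195a-5p the commonest insert, with 60.9%, was 1 base longer than the annotated 21.

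Inserts of miR-15b-5p shorter than the annotated 22 bases were 77.3% ± 7.80 of its reads in exosomes, 100% ± 0 in supernatant, 51.9% ± 2.79 in TUBO cells, 53.6% ± 1.31 in MM3MG-Her2 and 75.2% ± 4.52 in MM3MG (SD, n = 3 each). The full-length form was absent from all 44, 49 and 24 supernatant reads, against 85 of 194, 54 of 123 and 105 of 212 reads in TUBO cells. Shorter inserts of miR-16-5p were 13.3% ± 0.857 in exosomes, 10.7% ± 1.14 in supernatant, 8.94% ± 0.705 in TUBO cells, 8.47% ± 1.54 in MM3MG-Her2 and 14.9% ± 1.84 in MM3MG. For both arms MM3MG stood above MM3MG-Her2 and above TUBO cells with no overlap, and exosomes above TUBO cells (exact permutation p = 0.1 each; adjusted 0.12 for miR-15b-5p and 0.15 for miR-16-5p). TUBO cells and MM3MG-Her2 overlapped for both arms.

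miR-15a-5p inserts shorter than annotated were 80.1% ± 5.85 in exosomes, 100% ± 0 in supernatant, 63.6% ± 4.16 in TUBO cells, 62.4% ± 10.2 in MM3MG-Her2 and 74.1% ± 7.10 in MM3MG, with overlap among the cell groups. Inserts of 20 bases or fewer, over all reads of a library, were 15.9% ± 2.09 in exosomes, 28.9% ± 4.70 in supernatant, 10.1% ± 0.277 in TUBO cells, 16.1% ± 1.71 in MM3MG-Her2 and 10.2% ± 1.15 in MM3MG. The part of degradation or size selection in these ends was not tested.

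**Figure D3:**
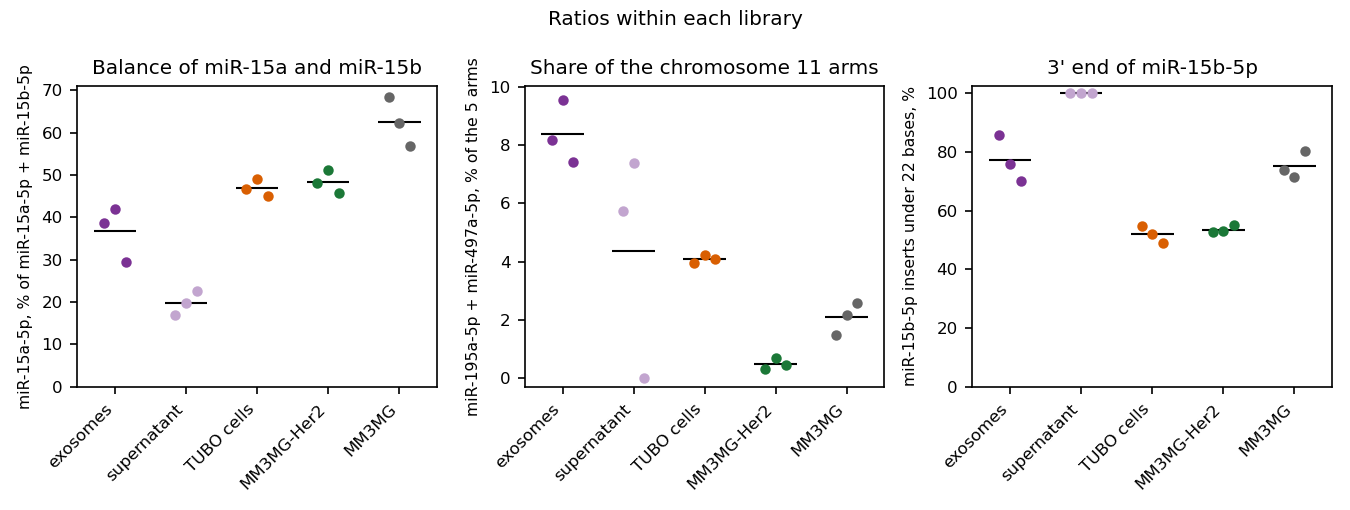
Percentages within each library (y axes) by group (x axis): miR-15a-5p in miR-15a-5p plus miR-15b-5p, miR-195a-5p plus miR-497a-5p in the 5 arms, and miR-15b-5p inserts under 22 bases; points are libraries and lines are means of 3. MM3MG libraries have the highest miR-15a-5p share, exosomes the highest share of the chromosome 11 arms, and all miR-15b-5p inserts of the supernatant are short.

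The passenger arms carry sequences that tell the 2 miR-16 loci apart, and are shown for that reason (RefSeq, GRCm38.p6; bases 2 to 8 in capitals).
miR-16-1-3p: cCAGUAUUgacugugcugcuga
miR-16-2-3p: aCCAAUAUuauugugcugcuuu
The Mir16-1 arm, from Dleu2, lies at chr14:61631894-61631915 on the minus strand and the Mir16-2 arm, from Smc4, at chr3:69009960-69009981 on the plus strand. miR-16-1-3p had 29.5, 33.9 and 10.5 CPM in exosomes, 0 reads in supernatant and 101, 155 and 158 CPM in TUBO cells. It had 133, 126 and 120 CPM in MM3MG-Her2, against 21.3, 34.2 and 27.0 CPM in MM3MG. TUBO cells and MM3MG-Her2 were high and overlapped, and exosomes and MM3MG were low.

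miR-16-1-3p rose in MM3MG-Her2 relative to MM3MG by a log2 fold change of 2.13 ± 0.34 (edgeR, adjusted p = 5.57e-08) and in TUBO cells relative to MM3MG by 1.89 ± 0.31 (adjusted p = 6.19e-08). In exosomes it fell by 2.31 ± 0.41 on the log2 scale relative to TUBO cells (adjusted p = 0.000191). These 3 calls held under all 17 alternatives. With 0 reads in supernatant and 191 in TUBO cells it was at least 9.30-fold lower in supernatant, taking 3 reads over the group as the floor.

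miR-16-2-3p had 88.4, 102 and 130 CPM in exosomes, 27.6, 0 and 0 CPM in supernatant and 55.8, 82.7 and 75.1 CPM in TUBO cells. It had 77.9, 93.6 and 72.2 CPM in MM3MG-Her2, against 14.2, 38.5 and 36.0 CPM in MM3MG. Exosome libraries were all above TUBO cells, and MM3MG-Her2 and TUBO cells were both above MM3MG. In TUBO cells relative to MM3MG, miR-16-2-3p rose by 0.80 ± 0.34 (edgeR, adjusted p = 0.0275) and passed in 16 of 17 alternatives. On 2 supernatant reads, it was lower in supernatant than in TUBO cells (-2.59 ± 0.80, adjusted p = 0.00708). Exosomes minus supernatant gave 3.32 ± 0.75 for it (adjusted p = 0.00063). It rose in MM3MG-Her2 relative to MM3MG by 1.38 ± 0.38 (adjusted p = 0.000834), in all of 17 alternatives but the one without MM3MG-Her2 replicate 3 (0.87), and its log2 fold change of 0.73 ± 0.34 in exosomes relative to TUBO cells missed the threshold (adjusted p = 0.0954).

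Of all reads of both 3p arms, miR-16-1-3p had 21 of 112 in exosomes, or 18.8% (exact binomial 95% interval 12.0 to 27.2), and 191 of 289 in TUBO cells, or 66.1% (60.3 to 71.5). It had 60.6% (51.7 to 69.0) in MM3MG-Her2 and 47.7% (35.2 to 60.5) in MM3MG. Supernatant had 2 reads in all, both of miR-16-2-3p. These shares describe pooled reads and were not tested over libraries.

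Of the other passengers, miR-15b-3p averaged 88.5 ± 32.8 CPM in MM3MG-Her2 and 31.4 ± 5.90 CPM in MM3MG and rose there by 1.47 ± 0.36 (adjusted p = 0.000263). miR-195a-3p had 22, 16 and 24 reads in TUBO cells, against 1, 2 and 3 reads in MM3MG, a log2 fold change of 2.55 ± 0.54 (adjusted p = 1.28e-05). It had 62 reads in TUBO cells and 2 in MM3MG-Her2, a ratio of 14.1 (95% exact interval 3.73 to 119) and an edgeR log2 fold change of 3.32 ± 0.73 (adjusted p = 3.54e-05). Both strands of the Mir195a hairpin were thus higher in TUBO cells than in either MM3MG group. miR-15a-3p had at most 6 reads in a group and miR-497a-3p at most 1, and neither was tested.

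**Figure D4:**
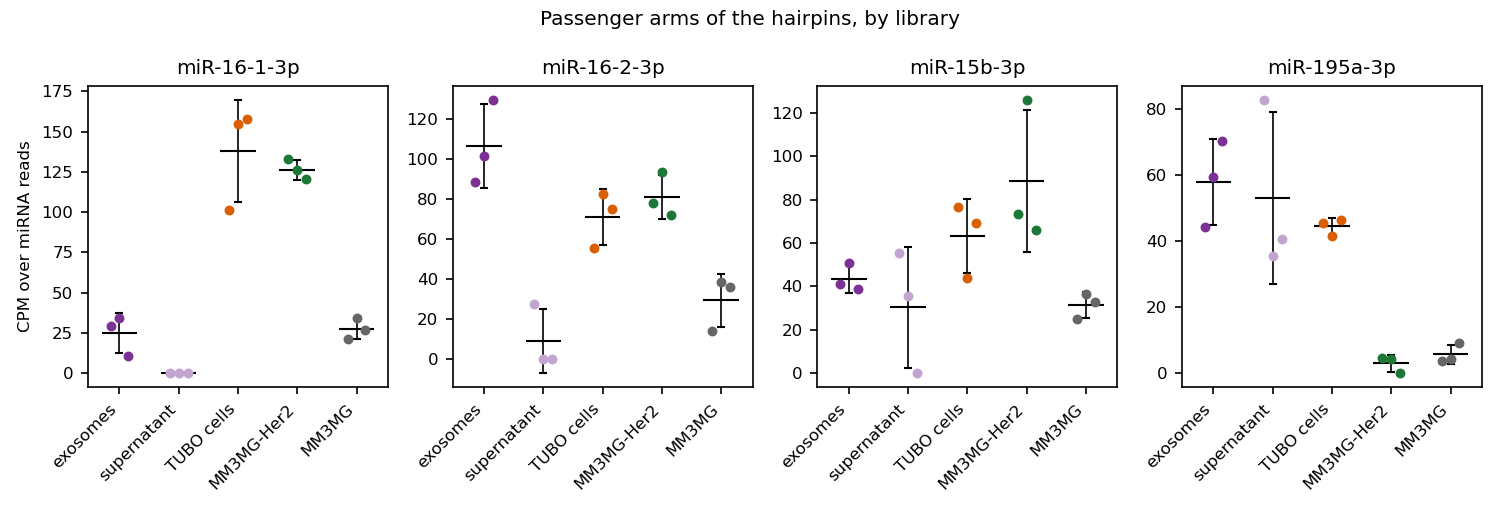
CPM over miRNA reads (y axis) of 4 passenger arms by group (x axis); points are libraries, the horizontal line the mean and the whisker the SD of 3 libraries. miR-16-1-3p is lower in exosomes than in TUBO cells while miR-16-2-3p is not, and miR-195a-3p is near 0 in MM3MG-Her2 and MM3MG.

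Other mouse miRNAs share the hexamer AGCAGC at bases 1 to 6 or 2 to 7. RefSeq held 8 such arms, which made 7 features, and 3 of these reached 10 CPM in a group. Their sequences (RefSeq, GRCm38.p6) follow with the hexamer in capitals.
miR-503-5p: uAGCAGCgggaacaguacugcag
miR-322-5p: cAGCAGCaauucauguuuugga
miR-103-3p: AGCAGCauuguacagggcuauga
miR-107-3p: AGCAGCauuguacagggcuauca
miR-322-5p and miR-503-5p are products of an X-linked cluster (chrX:53054306-53054327 and chrX:53054027-53054049, minus strand), and miR-103-3p (chr2:131288103-131288125, plus strand) and miR-107-3p (chr19:34820700-34820722, minus strand), whose first 18 bases are the same, were counted together. miR-503-5p averaged 1471 ± 50.6 CPM in MM3MG-Her2 and 255 ± 14.2 CPM in MM3MG, with a log2 fold change of 2.51 ± 0.18 (adjusted p = 2.8e-22), a call that held under all 17 alternatives. miR-322-5p averaged 1357 ± 54.8 CPM in MM3MG-Her2 and 858 ± 66.6 CPM in MM3MG, with 0.64 ± 0.17 (adjusted p = 0.000578), but only 0.06 in the alternative without MM3MG-Her2 replicate 3. miR-103-3p/miR-107-3p averaged 6794 ± 346 CPM in MM3MG-Her2 and 10806 ± 1516 CPM in MM3MG and fell by 0.69 ± 0.14 on the log2 scale (adjusted p = 1.14e-05). In this comparison miR-503-5p and miR-322-5p, with the hexamer at bases 2 to 7, thus rose. miR-103-3p/miR-107-3p, with it at bases 1 to 6, fell. In TUBO cells relative to MM3MG-Her2, miR-503-5p gave -2.87 ± 0.18, miR-322-5p -3.35 ± 0.19 and miR-103-3p/miR-107-3p 0.59 ± 0.14, each passing under all 17 alternatives. In TUBO cells relative to MM3MG, miR-322-5p gave -2.71 ± 0.19, again under all 17. There miR-503-5p (-0.36) and miR-103-3p/miR-107-3p (-0.09) did not pass with TMM.

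**Figure D5:**
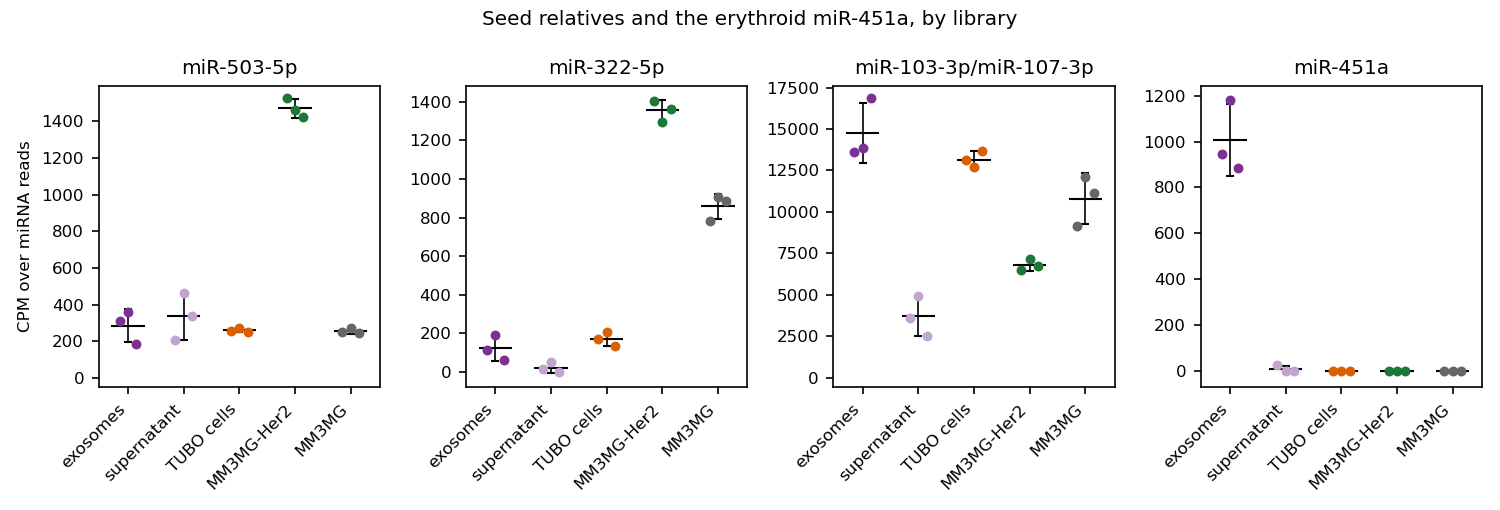
CPM over miRNA reads (y axis) of the 3 seed relatives and of the erythroid miR-451a by group (x axis); points are libraries, the horizontal line the mean and the whisker the SD of 3 libraries. miR-503-5p and miR-322-5p peak in MM3MG-Her2, miR-103-3p/miR-107-3p is lowest in supernatant, and miR-451a appears in exosomes with 2 reads elsewhere.

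The miRNAs whose levels were most like each arm were found over the 5 group means, as the smallest root mean square difference of centred log2(CPM + 1) values among 212 candidates with at least 100 CPM in a group. For miR-15a-5p these were miR-28a-5p (0.20) and miR-186-5p (0.25), and for miR-15b-5p miR-423-3p (0.29) and the feature let-7a-1-3p/let-7c-2-3p (0.30). For miR-16-5p they were miR-378c (0.20) and miR-28a-5p (0.43), and for miR-195a-5p miR-192-5p (0.25) and miR-182-5p (0.27). miR-192-5p averaged 191 ± 40.7 CPM in exosomes, 59.4 ± 57.6 CPM in supernatant, 153 ± 11.2 CPM in TUBO cells, 28.4 ± 7.17 CPM in MM3MG-Her2 and 46.0 ± 12.8 CPM in MM3MG. miR-497a-5p had no close match among these candidates, its nearest being miR-181c-3p (1.46) and miR-205-5p (1.51). Its own highest group mean, 98.95 CPM in exosomes, was below the minimum of 100 CPM, so miRNAs of its level were not candidates. miR-205-5p also lacked reads in MM3MG-Her2, but averaged 78.0 ± 14.5 CPM in TUBO cells.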

How the data were processed

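TRIzol was used to extract total RNA, per the labels' protocols; adapters were ligated to both ends, and cDNA was amplified and gel-selected for miRNA inserts. What the authors deposited are raw counts, the number of reads of each distinct insert in a library. No trimming tool, aligner or build is named in the labels (not given in the sources used here). Inserts of 18 to 26 bases were matched by their first 18 bases to 1679 RefSeq mature arms (GRCm38.p6), plus 84 arms of GENCODE M21 hairpins with no mature RefSeq entry; arms with the same first 18 bases were joined. edgeR 4.0.16 (R 4.3.3; TMM, filterByExpr, robust quasi-likelihood) was fitted to the 9 cell libraries and to the 9 TUBO-derived libraries, with Benjamini-Hochberg adjustment over all tested miRNAs and a threshold of 0.05, and was tested on simulated data. Within-library ratios were compared by two-sided exact permutation of 3 libraries against 3 (Python 3.11.15). Alternatives were DESeq2 1.42.0, other scalings, matches, lengths and samples. Named were the members, their 3p arms, seed relatives at 10 CPM and the 2 nearest patterns an arm. The members and lists were chosen with earlier results of these data known. Depth limits precision most in supernatant. Labels name no batch.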

Additional observations from a re-analysis of the deposited data

Results flagged for a closer look

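For 3 arms, a pair of groups had log2 fold changes of opposite sign relative to the same group, and the difference between the pair passed edgeR's test. Of these, only miR-195a-5p passed the test in both groups of its pair. miR-195a-5p was higher in TUBO cells and lower in MM3MG-Her2 relative to MM3MG, and the difference between these groups was 2.56 on the log2 scale (adjusted p = 6.46e-11). miR-15a-5p had a negative log2 fold change in TUBO cells and a positive one in MM3MG-Her2 relative to MM3MG, neither past the threshold; the difference of -0.53 (adjusted p = 0.00986) was -0.01 with RLE scaling. miR-15b-5p had a log2 fold change of -0.12 in exosomes, which did not pass (adjusted p = 0.743; 0.06 with upper-quartile scaling), and of 0.85 in supernatant relative to TUBO cells (adjusted p = 0.0147), with a difference of -0.96 (adjusted p = 0.00764). No explanation was tested.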

How the results depend on the processing

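All 102 recomputed counts of called miRNAs stayed within 1.5 times the reported count. Of the recomputed log2 changes of members, 340 kept direction and call, 45 lost and 27 gained the call, and 47 changed sign; of the recomputed ratios 407 kept direction and 13 changed sign. The cause of each change was not tested. With RLE scaling, miR-15a-5p in TUBO cells minus MM3MG gave 0.06, and miR-15b-5p and miR-16-5p in TUBO cells minus MM3MG-Her2 gave 0.09 and 0.01; DESeq2 gave 0.07, 0.09 and 0.01. Library size alone gave 0.12 for the miR-15a-5p comparison with MM3MG. With no filter on low counts it gave 0.36, and TUBO cells minus MM3MG-Her2 gave 0.18 for miR-15a-5p, 0.27 for miR-15b-5p and 0.20 for miR-16-5p. Upper-quartile scaling gave 0.06 for miR-15b-5p and 0.15 for miR-195a-5p in exosomes minus TUBO cells, and -0.01 for miR-497a-5p in exosomes minus supernatant. That last difference was -0.14 in 1 fit of all 15 libraries, -0.24 with a match to the annotated end, -0.16 with starts shifted by up to 2 bases and -0.37 with inserts of 20 to 24 bases, which also gave -0.13 for miR-15a-5p there. With shifted starts, the miR-497a-5p share of its pair gave 3.75 points for MM3MG-Her2 minus MM3MG, 0.508 for TUBO cells minus MM3MG and -3.24 for TUBO cells minus MM3MG-Her2. Matching to the annotated end gave -0.359 points for short miR-15a-5p inserts in TUBO cells minus MM3MG-Her2.

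Leaving out 1 replicate at a time gave ranges that crossed 0 as follows. In MM3MG-Her2 minus MM3MG, miR-15a-5p ranged from -0.28 to 0.41. In TUBO cells minus MM3MG, miR-15a-5p ranged from -0.18 to 0.54. In TUBO cells minus MM3MG-Her2, miR-15a-5p ranged from -0.44 to 0.17, miR-15b-5p from -0.34 to 0.32 and miR-16-5p from -0.46 to 0.17. In exosomes minus TUBO cells, miR-15b-5p ranged from -0.38 to 0.05 and miR-195a-5p from -0.24 to 0.07. In exosomes minus supernatant, miR-15a-5p ranged from -0.09 to 0.52 and miR-497a-5p from -0.80 to 0.53. Among ratios, in TUBO cells minus MM3MG-Her2 the miR-15a-5p share ranged from -2.73 to 0.0100 points, short miR-15a-5p inserts from -1.95 to 7.03 and short miR-16-5p inserts from -0.288 to 1.25. The chromosome 11 share in supernatant minus TUBO cells ranged from -1.22 to 2.48, and the miR-497a-5p share in TUBO cells minus MM3MG from -1.28 to 0.717.

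With the replicate number as a block, 151 miRNAs were called in MM3MG-Her2 against MM3MG, 204 in TUBO cells against MM3MG, 202 in TUBO cells against MM3MG-Her2, 81 in exosomes against TUBO cells, 139 in exosomes against supernatant and 147 in supernatant against TUBO cells, and no member's call changed. No comparison had all 3 correlations of same-numbered libraries over 0.1, so numbers were taken as names. Exosomes against supernatant came nearest, with 0.0458, 0.29 and 0.398, while libraries of unlike number averaged -0.111. Pairing of these exosome and supernatant libraries was thus not excluded, and their ratios were permuted as unpaired. The supernatant, with 56415 to 74182 miRNA reads a library, limits miR-195a-5p and miR-497a-5p most.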

Other observations

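Among miR-16-5p inserts of at least 22 bases, the substitution C21T (annotated base, position from 1 at the 5′ end of the DNA form, base in the insert) had 9 of 738, 7 of 492 and 6 of 801 reads in exosomes, which is 1.22%, 1.42% and 0.749%. In supernatant it had 0 of 186, 0 of 135 and 0 of 233 reads. In TUBO cells it had 2 of 2128, 0 of 1588 and 0 of 2015 reads, and it had none in MM3MG-Her2 or MM3MG. All 3 exosome libraries were above all 12 others in this share. However, the upper exact binomial 95% limits of the supernatant libraries, 1.96%, 2.70% and 1.57%, lay above every exosome value. The form was chosen after its values were seen, and its origin was not tested.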
